A study of Bos taurus with 20 samples.

Results

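The genes described here are the contractile and calcium-handling genes that separate slow from fast skeletal muscle fibres, together with myoglobin, in bovine neck muscle. They were chosen by name: MYH7, TNNT1, TNNI1, TNNC1 and MB for slow fibres and MYH1, TNNT3, TNNI2, TNNC2 and ATP2A1 for fast fibres. Of these 10 genes, 8 matched a probe by gene symbol, 4 slow and 4 fast, out of 14964 named genes on the array. TNNI1 and TNNI2, the slow and fast isoforms of inhibitory troponin, matched no probe and were not analysed here. MYH1 matched 2 probes and the other members 1 each, which makes 9 probes.

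Slow and fast fibres differ in the myosin heavy chain that drives shortening, in the troponin isoforms that switch the thin filament on with calcium, and in the calcium pump that returns calcium to the sarcoplasmic reticulum. Slow fibres work aerobically and hold myoglobin, an oxygen-binding haem protein that gives red meat its colour. Fast fibres shorten and relax faster and rely more on glycolysis.

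The series compared 5 untreated control cows (K3, K6, K8, K9 and K10) with 5 cows (DE27, DE29, DE30, DE31 and DE32) given dexamethasone, a synthetic glucocorticoid, and estradiol, an oestrogen. Dexamethasone was given by mouth at 0.4 mg per animal daily over 31 days, and estradiol as 6 weekly intramuscular injections of 5 mg. Neck muscle was taken at the slaughterhouse and kept in vacuum packs at 4 °C, and every cow was sampled on day 0 and again after 14 days of storage, which gives 4 groups of 5 arrays. Age, breed and genotype of the cows are not given in the sources used here. Each array was hybridised with cyanine 3 labelled total RNA of 1 sample. The samples are whole muscle, in which fewer fibres of a type and less RNA per fibre cannot be told apart.

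Values are log2 processed signal after each array was scaled on its 75th percentile, a step that sets arrays of different brightness to a common level. Before scaling, that percentile ran from 657 to 936 in control and 719 to 949 in treated samples at day 0, and from 278 to 534 and 325 to 451 at day 14. The unscaled signal of every member was therefore lower at day 14 than at day 0 in control animals, and of every member except MB in treated animals. Directions over storage are relative to the rest of the array. The 6 skeletal muscle fibre markers (ACTA1, CKM, DES, TTN, TCAP and NEB) exceeded background on each of the 20 arrays, with a summed log2 level between 17.81 and 19.02. The 9 member probes likewise exceeded background on every array.

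Several members were bright enough to approach the top of the scanner's range. TNNC1 exceeded 80% of saturation on 7 arrays and MB on 8, against 2 for TNNC2, 1 for ATP2A1 and 0 for the remaining probes. Of the 8 bright MB arrays, 4 were controls and 2 treated animals at day 0, and 2 were treated animals at day 14. Saturated pixels were marked on 3 arrays for TNNC1 and on 2 for MB.

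At day 0, no fibre-type gene passed the test between treated and control muscle. This held for all 8 measured members (limma adjusted p over 15438 tested probes, threshold 0.05), where 2.45% of all probes passed in either direction. Nor did any member separate the groups without overlap, against 5.88% of all probes. The median log2 difference, treated minus control, was -0.14 over the slow members and -0.42 over the fast ones, beside -0.01 over all tested probes. MB had a log2 level of 18.51, 18.43, 17.98, 18.00 and 18.16 in control animals K3, K6, K8, K9 and K10. In treated animals DE27, DE29, DE30, DE31 and DE32 its level was 17.45, 18.24, 17.27, 17.81 and 17.86. DE29 lay among the controls and the other treated animals lay below all of them. The MB difference was -0.49 ± 0.20 (SE) with limma adjusted p = 0.239.

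The fast members all had differences below 0 at day 0 on the 75th percentile scaling (TNNC2 was 0.11 with quantile normalization), and none passed. ATP2A1, the calcium pump of fast fibres, had a log2 level of 18.40, 18.12, 17.27, 17.85 and 17.34 in the controls. Its treated values were 17.09, 17.41, 17.42, 17.37 and 17.40, a narrow range that overlapped the lower control values. The difference was -0.46 ± 0.22 with limma adjusted p = 0.32. TNNT3, fast troponin T, differed by -0.69 ± 0.46 (adjusted p = 0.494) and MYH1, a fast myosin heavy chain, by -0.37 ± 0.23 (adjusted p = 0.458) on its first probe and by -0.79 ± 0.27 (adjusted p = 0.16) on its second. TNNC2, fast troponin C, differed by -0.05 ± 0.17. Of the slow members, MYH7, the slow myosin heavy chain, differed by -0.17 ± 0.12, TNNC1, slow troponin C, by -0.11 ± 0.18 and TNNT1, slow troponin T, by 0.09 ± 0.42, with limma adjusted p between 0.537 and 0.943.

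**Figure D1:**
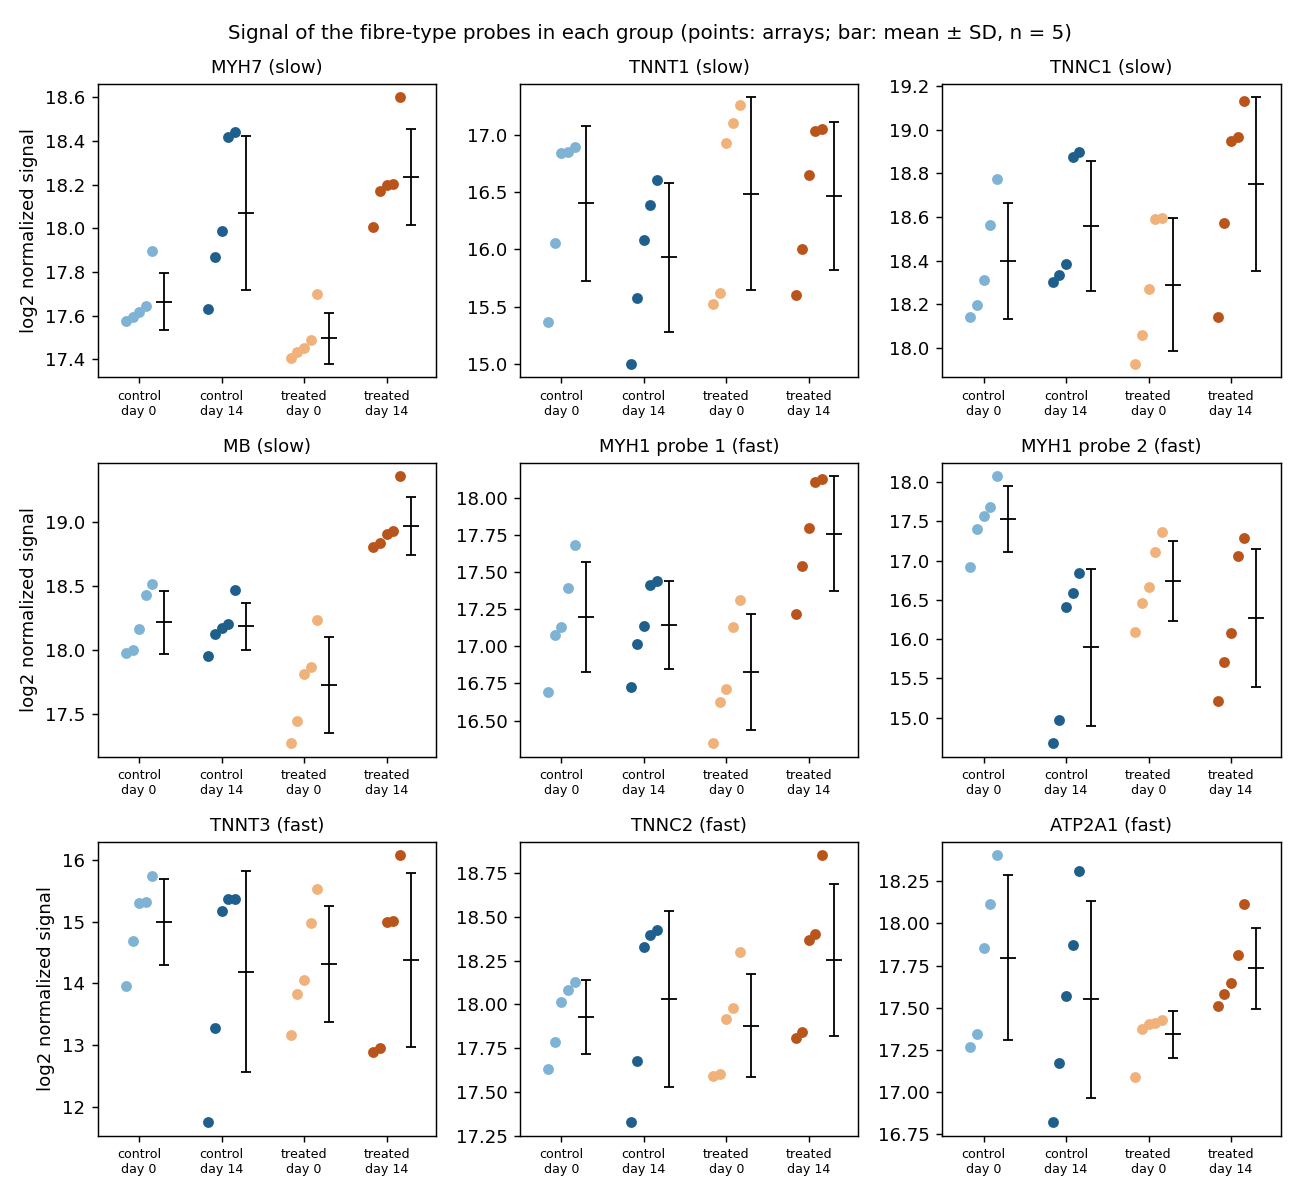
Log2 normalized signal of the 9 member probes by group, where each point is an array and the bar to its right the mean ± SD of 5 arrays (axes do not start at 0 and differ between panels). For MB, the treated animals at day 14 lie between 18.80 and 19.36, above every other array, while TNNT3 ranges from 11.75 to 16.08 at day 14.

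At day 14, no member passed between treated and control animals, where 0.0713% of all probes passed. The differences of all 8 lay above 0 on the 75th percentile scaling, but MYH7 had -0.05 and TNNC1 -0.07 with quantile normalization and TNNT3 had -0.08 with normexp. The median was 0.36 over the slow members and 0.21 over the fast ones, beside 0.04 over all tested probes. MB was the member with separate groups (1 of 8, against 2.29% of all probes). Its log2 level was 18.12, 18.18, 18.20, 18.46 and 17.95 in controls K3, K6, K8, K9 and K10. In DE27, DE29, DE30, DE31 and DE32 it was 18.80, 19.36, 18.91, 18.93 and 18.84. The lowest treated animal thus lay above the highest control, with a difference of 0.78 ± 0.17 and limma adjusted p = 0.176. In the joint fit with a random replicate block the adjusted p was 0.050007, still above the threshold, and over the settings with all animals it ran up to 1. MYH1 differed by 0.61 ± 0.23 (adjusted p = 0.405) on its first probe, and its groups overlapped. The other members differed by 0.17 to 0.54, with adjusted p from 0.642 to 0.952. The TNNT3 difference of 0.19 ± 0.81 became -0.42 without control animal K9.

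With the arrays of an animal averaged, the treatment difference was between -0.25 (TNNT3) and 0.31 (TNNT1) in the 8 members, and none passed, where 3.37% of all probes passed. MB differed by 0.15 ± 0.15 (limma adjusted p = 0.641), as its difference had opposite signs on the 2 days. The storage comparisons share their arrays with these treatment comparisons.

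In control animals, none of the 8 members passed the test over storage, where 39.1% of all probes passed in either direction. Groups without overlap were found for 25% of all probes and for none of the 8 members. MYH1 is counted here by its first probe, and its second is given below. The median log2 change, day 14 minus day 0, was 0.06 over the slow members and -0.15 over the fast ones, beside 0.09 over all tested probes. MYH7 came closest. Its level was 17.59, 17.89, 17.57, 17.64 and 17.62 in K3, K6, K8, K9 and K10 at day 0 and 17.87, 18.44, 18.42, 17.99 and 17.63 at day 14. A higher MYH7 value at day 14 was found in 5 of 5 animals. The mean change was 0.41 ± 0.19 (limma adjusted p = 0.102), in a fit that did not pair the days of an animal. In a fit of all 20 arrays with the animal as a random replicate block, where 39.5% of all probes passed, the MYH7 change of 0.41 had an adjusted p of 0.0493.

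The second MYH1 probe fell over storage in control animals, where 17.4% of all probes passed as lower. Its level was 17.41, 18.07, 17.57, 17.68 and 16.92 in K3, K6, K8, K9 and K10 at day 0. At day 14 it was 16.41, 16.84, 14.68, 14.97 and 16.59, below every day 0 value. K8 fell by 2.89 and K9 fell by 2.70, the most of the 5 animals. The change was -1.63 ± 0.42 (limma adjusted p = 0.012), and without K9 it was -1.36 with adjusted p = 0.0647. The first MYH1 probe, which represents the gene in the counts as the brighter of the probes without saturation, changed by -0.05 ± 0.21 (adjusted p = 0.87) in the same animals. The first probe lay between 16.70 and 17.68 at day 0 and between 16.73 and 17.44 at day 14, so that the days overlapped. Why the probes differ was not tested. The mean of both probes changed by -0.84 (adjusted p = 0.0225).

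In treated animals, 3 of the 8 members rose over storage and none fell, namely MB, MYH7 and MYH1 (by its first probe). The share of all probes was 29.6% in either direction and 17.8% for probes that rose. Groups without overlap were found for MB, MYH7 and ATP2A1, that is for 3 of 8 members beside 20.4% of all probes. The median change was 0.60 over the slow members and 0.38 over the fast ones, beside 0.10 over all tested probes.

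On the 75th percentile scaling, MB had the largest change of the 8 members. It rose from the day 0 levels given above in 5 of 5 treated animals, by 1.36 in DE27, 1.12 in DE29, 1.64 in DE30, 1.12 in DE31 and 0.98 in DE32. The change was 1.24 ± 0.21 (limma adjusted p = 0.00196), and the day 14 values lay above all day 0 values. Within the scan date that held 3 treated arrays of each day it was 1.24, within that of 1 array at day 0 and 2 at day 14 it was 0.85, and on the slide that held both samples of DE32 it was 0.98. Without scaling, the MB signal of treated animals changed by 0.12, so that its rise stands relative to arrays that became dimmer.

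MYH7 was 17.49, 17.43, 17.70, 17.41 and 17.45 in DE27, DE29, DE30, DE31 and DE32 at day 0 and 18.17, 18.60, 18.20, 18.01 and 18.20 at day 14. Every day 14 value lay above every day 0 value, and the change was 0.74 ± 0.16 (limma adjusted p = 0.00659). The first MYH1 probe was 16.71, 17.31, 17.13, 16.35 and 16.63 at day 0 and 17.80, 18.12, 17.54, 18.11 and 17.21 at day 14. It rose in 5 of 5 animals, most in DE31 (1.76), but DE32 at day 14 lay within the day 0 range. Its change was 0.93 ± 0.24 (adjusted p = 0.0154), and without DE31 it was 0.72 with adjusted p = 0.0858. The second MYH1 probe had a change of -0.47 ± 0.40 (adjusted p = 0.403) in these animals, 3 of them lower and 2 higher at day 14. The mean of both probes changed by 0.23 (adjusted p = 0.572).

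The remaining members did not pass in treated animals. ATP2A1 was higher at day 14 in 5 of 5, by 0.10 to 0.74, with a change of 0.39 ± 0.17 (limma adjusted p = 0.0984). TNNC1 changed by 0.46 ± 0.23, higher in 5 of 5 animals, and TNNC2 by 0.38 ± 0.24, higher in 3 of 5. TNNT1 changed by -0.02 ± 0.42 and TNNT3 by 0.07 ± 0.65, with changes of both signs among the animals.

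**Figure D2:**
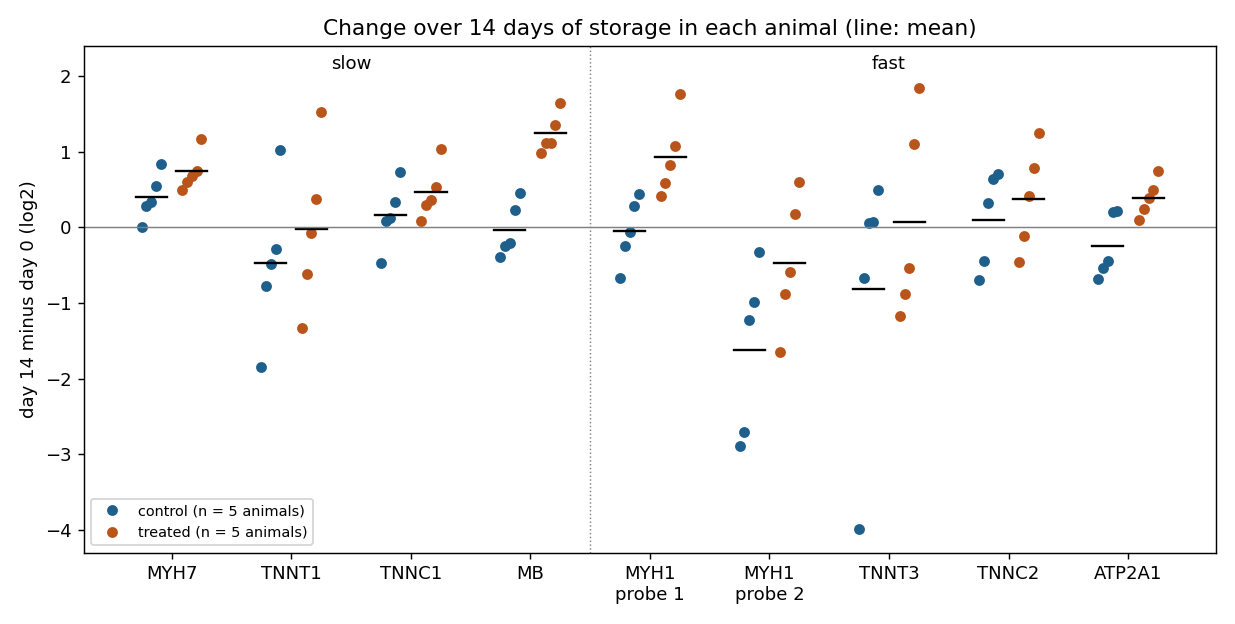
Change from day 0 to day 14 in each animal, in log2 units, for the 9 probes, with control animals in blue, treated animals in orange and the mean of 5 as a line. MB changed by 0.98 to 1.64 in treated and by -0.39 to 0.46 in control animals, and TNNT3 fell by 3.99 in control animal K9.

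These storage calls depended on how arrays were scaled. With quantile normalization, where 26.7% of all probes passed, 0 of the 8 members passed in treated animals: MB changed by 0.41 (limma adjusted p = 0.132), MYH1 by 0.49 (adjusted p = 0.126) and MYH7 by 0.04 (adjusted p = 0.888). With median centring, where 33.5% of all probes passed, MB passed at 0.91 (adjusted p = 0.00747), and MYH7 at 0.41 and MYH1 at 0.60 did not. The authors' series table gave 1.19 for MB, 0.69 for MYH7 and 0.89 for MYH1, and all 3 passed. The median change of all probes moved with the scaling, from 0.10 to -0.23 with median centring, -0.02 with quantile normalization and 0.48 with normexp background correction. Relative to that median, MB lay 1.14 higher in the main scaling and with median centring, 1.22 in the series table, 0.43 with quantile normalization and 0.42 with normexp. MYH7 lay 0.64 higher in the main scaling and with median centring, 0.72 in the series table, 0.06 with quantile normalization and 0.05 with normexp. In the same order the first MYH1 probe lay 0.83, 0.92, 0.51 and 0.13 higher. Over all probes, 2745 rose and 1820 fell in treated animals, against 1921 and 2206 with quantile normalization, 1504 and 3671 with median centring, 7134 and 1700 with normexp, and 1756 and 2181 in the series table.

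**Figure D3:**
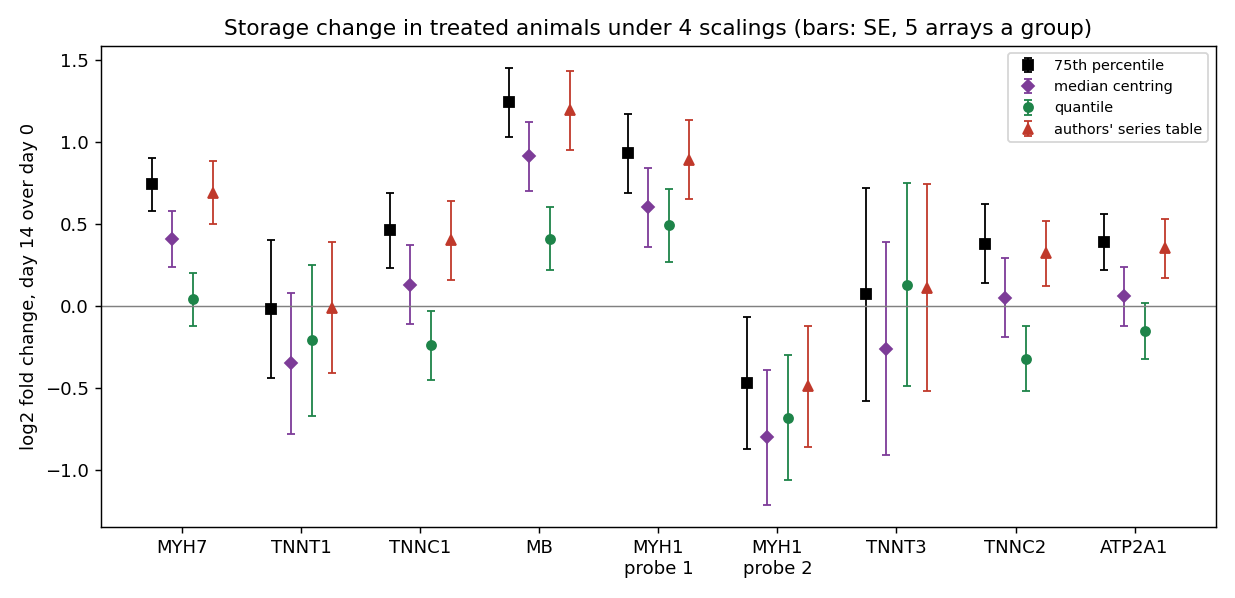
Log2 fold change over storage in treated animals for the 9 probes under 4 scalings, with the SE of the limma fit as bars (5 arrays a group). MB runs from 1.24 on the 75th percentile to 0.41 with quantile normalization, and TNNC1, TNNC2 and ATP2A1 lie below 0 with quantile normalization only among the scalings drawn.

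Whether storage changed the members differently in treated and control animals was tested as an interaction. No probe on the array passed (0%), at 534 probes with an unadjusted limma p under 0.05. The interaction, treated change minus control change, lay above 0 in 8 of 8 members, with a median of 0.39 over the slow members and 0.76 over the fast ones, beside 0.04 over all tested probes. The sign was not particular to the members, as 6 of 6 skeletal muscle fibre markers lay above 0, with a median of 0.46. Satellite cell markers had 2 of 2 above 0. Fibroblast markers had 0 of 5, endothelial and smooth muscle markers 0 of 4 each, adipocyte and nerve markers 1 of 4 each, and blood and macrophage markers 1 of 3 each. MB had the smallest unadjusted p of all 15438 probes (8.26e-05), with limma adjusted p = 0.999. It ranked 30 with quantile normalization and 1314 in the series table. It changed by -0.39, -0.25, 0.23, 0.46 and -0.21 in controls K3, K6, K8, K9 and K10 and by 0.98 or more in each treated animal. The changes of the groups did not overlap, which held for 1 of 8 members and for 0.544% of all probes. The interaction for MB was 1.28 ± 0.26, and 0.74 with quantile normalization and 0.75 in the series table. On array K10 at day 0, the spots of MB read 31200 and 378000, of which the lower was marked as an outlier and left out. The series table has 84315 for MB on that array and between 265404 and 350463 for the other controls at day 0. Without K10 the interaction for MB was 1.23.

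MYH1 had an interaction of 0.98 ± 0.32 on its first probe (limma adjusted p = 0.999) and of 1.16 ± 0.62 on its second. The difference between treatments thus had the same sign on both probes, although the changes in treated animals did not. ATP2A1 had 0.64 ± 0.36, with 3 of 5 controls lower and 5 of 5 treated animals higher at day 14. The interaction was 0.33 ± 0.23 for MYH7, 0.30 ± 0.29 for TNNC1, 0.45 ± 0.59 for TNNT1, 0.27 ± 0.34 for TNNC2 and 0.88 ± 1.0 for TNNT3, each with adjusted p = 0.999. The TNNT3 value was 0.08 without K9. With quantile normalization the value was -0.09 for MYH7, -0.01 for TNNC1 and -0.10 for TNNC2, so that the shared sign did not hold under that scaling.

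TNNT3 was the most variable member after storage. Its SD within groups was 0.83 at day 0 and 1.52 at day 14, larger at day 14 than in 99.5% of tested probes, beside a median of 0.34 and 0.44 over all of them. In controls K3, K6, K8, K9 and K10 its level was 14.68, 15.30, 13.95, 15.74 and 15.31 at day 0 and 15.17, 15.37, 13.29, 11.75 and 15.37 at day 14. The treated animals DE27, DE29, DE30, DE31 and DE32 had 15.53, 13.83, 13.16, 14.98 and 14.05 at day 0 and 14.99, 12.95, 15.01, 16.08 and 12.88 at day 14. The stored samples thus fell into a low set of 4 (K9, DE32, DE29 and K8) and a high set of 6 from 14.99 upwards. In K9 the unscaled signal went from 82489 to 2440. The second MYH1 probe, with a within-group SD of 0.47 at day 0 and 0.94 at day 14, had the same 4 animals lowest at day 14, between 14.68 and 15.71, and so did TNNC2, between 17.32 and 17.84. ATP2A1 shared 3 of them, K8, K9 and DE29. The first MYH1 probe had K6, K8, K10 and DE32 lowest. None of the slow members had that set lowest.

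**Figure D4:**
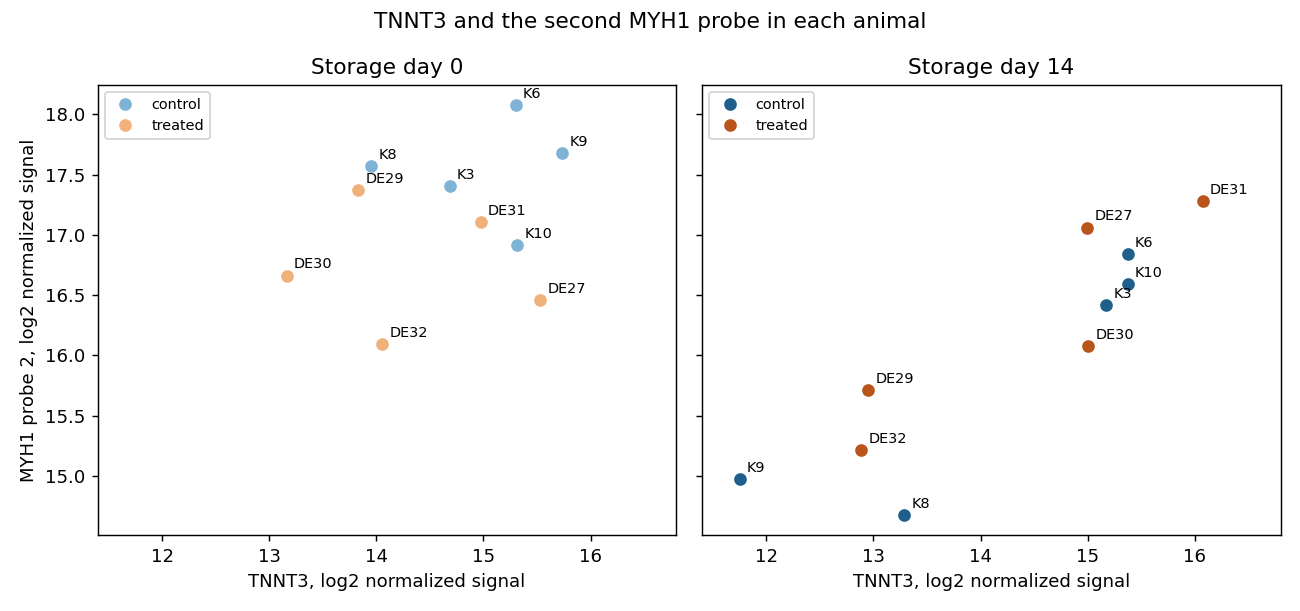
Level of the second MYH1 probe against TNNT3 (both log2 normalized signal) at day 0 and day 14, each point an animal. At day 14, K8, K9, DE29 and DE32 lie apart, with TNNT3 at 13.29 or less and the MYH1 probe at 15.71 or less.

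Those 4 stored samples came from both treatments and were hybridised on 4 different slides. The same 4 animals were lowest at day 14 for 1.78% of all tested probes. Among the other fast-fibre genes this held for 3 of 10, MYBPC2, ACTN3 and TPM1, a fast myosin-binding protein, the fast-fibre actinin and a tropomyosin. Among the fibre-type regulators it held for 4 of 15, SOX6, EYA1, MEF2C and TBX15, which are transcription factors or cofactors with known roles in fibre type. SOX6 was well above background on 3 of 5 arrays of each treatment at day 14. Among the other slow-fibre genes it held for 0 of 14. The set was read from TNNT3 itself, so these shares are a description, and what sets the 4 samples apart was not tested.

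The balance of slow and fast members varied widely between animals of a group. An index was taken per array as the mean of the slow members minus the mean of the fast members, each centred on its own mean over the 20 arrays. It was -0.22 ± 0.23 (SD, n = 5) in controls at day 0, 0.00 ± 0.42 in treated animals at day 0, 0.05 ± 0.65 in controls at day 14 and 0.17 ± 0.76 in treated animals at day 14, in that order of levels. Each neighbouring pair in that order differed by less than the SD of either group. Pairs further apart in the order did not all do so. The controls at day 0 and day 14 differed by more than the day 0 SD of 0.23 and less than the day 14 SD of 0.65. No p is given as the genes were chosen with results known. The single arrays ran from -1.02 (DE31 at day 14) to 1.01 (DE29 at day 14), both treated and stored. The slow mean was lowest in treated animals at day 0 (-0.24 ± 0.30) and highest in treated animals at day 14 (0.37 ± 0.33), and the fast mean likewise (-0.24 ± 0.19 and 0.20 ± 0.55).

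Whether an animal kept its rank between the days was also tested. Over 10 animals, with group means removed, Pearson's r between the days ran from -0.62 (TNNC2) to 0.65 (ATP2A1), with a median of 0.20 over the members (0.12 with quantile normalization and 0.02 with median centring) and 0.04 over all probes. For ATP2A1, the permutation p was 0.041 and 0.515 after Benjamini-Hochberg adjustment over all probes, Spearman's rho was 0.55 (permutation p = 0.104, adjusted 0.715), and r was 0.42 without K3 and K8. For TNNC2 the permutation p was 0.0626 (adjusted 0.554), rho was -0.38 (permutation p = 0.28, adjusted 0.812), and r was -0.53 without K10 and DE29. None of the 15428 probes with a value passed, at 1439 with an unadjusted permutation p under 0.05. The permutations exchanged all 10 animals across treatments, although group means had been removed within each treatment, so these p-values may be too small.

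The genes whose level followed the slow mean most closely over the 20 arrays, after group means were removed, were ESPNL (r = 0.887), PLEKHA8 (0.883), RCC1 (0.872), FAM185A (0.868) and SLC6A4 (0.861). For the fast mean they were DCUN1D2 (r = 0.912), SLN (0.909), CST6 (0.888), PHKA1 (0.878) and PDLIM7 (0.871). SLN is sarcolipin, a small inhibitor of the calcium pump, and PHKA1 the muscle regulatory subunit of phosphorylase kinase. The 20 arrays come from 10 animals and share the scaling, and these genes are named by rank with no p.

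The list of 14 other slow-fibre genes includes TNNT2, the troponin T best known from heart, whereas slow troponin T is TNNT1. TNNT2 was lower in treated animals at day 0, by -1.75 ± 0.31 (limma adjusted p = 0.0198), and over both days, by -1.46 ± 0.30 (adjusted p = 0.0245). It was dim, well above background on 5 control and 2 treated arrays at day 0 and on 4 and 1 at day 14, so these differences rest partly on signal near background. TPM3, a slow-fibre tropomyosin, had the next smallest p, with 0.79 ± 0.19 at day 0 (adjusted p = 0.0615) and 0.70 ± 0.18 over both days (adjusted p = 0.0546). At day 14, TNNT2 had -1.18 ± 0.40 and TPM3 0.61 ± 0.25, and 0 of 14 passed. The median of the list was -0.15 at day 0 and 0.05 at day 14.

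Over storage, 3 of these 14 genes rose and 2 fell in controls, where 21.7% of all probes rose and 17.4% fell. MYH7B, a slow myosin heavy chain relative, rose by 1.26 ± 0.37, ATP2A2, the slow-fibre and cardiac calcium pump, by 0.77 ± 0.22 and TPM3 by 0.64 ± 0.19. CASQ2, cardiac and slow calsequestrin, fell by 1.15 ± 0.35 and MYBPC1, slow myosin-binding protein C, by 0.89 ± 0.32 (limma adjusted p from 0.0178 to 0.046). In treated animals MYH7B rose by 0.97 ± 0.31 (adjusted p = 0.0351) and CASQ2 fell by 1.89 ± 0.63 (adjusted p = 0.0406). The median of the list was -0.15 in controls and 0.09 in treated animals. Its interaction had a median of -0.14, with MYL2, the slow regulatory light chain, at 0.50 ± 0.25 and MYBPC1 at 0.69 ± 0.48 the smallest in p (adjusted p = 0.999).

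Of the 12 other fast-fibre genes, 10 were measured, and 0 passed between treated and control animals on either day or over both. PVALB, the calcium buffer parvalbumin, differed by -2.20 ± 1.08 at day 0 (limma adjusted p = 0.328) and CASQ1, fast calsequestrin, by 1.36 ± 0.47 at day 14 (adjusted p = 0.376), where MYH4, a fast myosin, differed by 1.20 ± 0.60. MYOZ1 differed by -0.22 ± 0.14 at day 0. Over both days CASQ1 had 0.88 ± 0.39 and PVALB -1.67 ± 1.02. ACTN3 fell over storage in controls by 1.42 ± 0.45 (adjusted p = 0.0285) and CASQ1 rose in treated animals by 2.03 ± 0.36 (adjusted p = 0.00265). CASQ1 was well above background on 4 of the 5 treated arrays at day 0 and on 5 at day 14. Among the 5 controls it was so on 2 arrays at day 0 and on 3 at day 14. Its treatment differences thus rest partly on signal near background. MYL1, a fast light chain, had 0.43 ± 0.20 in treated animals and SRL, sarcalumenin, -0.48 ± 0.22 in controls, neither past the threshold. The interaction lay above 0 in 10 of 10 (9 of 10 with quantile normalization, MYL1 below), with a median of 0.62, led by ACTN3 at 1.12 ± 0.62 and SRL at 0.42 ± 0.29 by p, all with adjusted p = 0.999.

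Of 8 developmental and cardiac sarcomere genes 6 were measured. MYL7, the atrial light chain, rose over storage in treated animals (limma adjusted p = 0.0317). The measured difference was 2.78-fold. MYL7 was not well above background on any treated array at day 0 and was so on 3 of 5 at day 14. This difference therefore rests on signal near background. ACTC1, cardiac actin, differed between treated and control animals by -2.22 ± 0.84 at day 0 (adjusted p = 0.201), by -2.51 ± 0.89 at day 14 (adjusted p = 0.381) and by -2.37 ± 0.59 over both days (adjusted p = 0.0521). MYH3, embryonic myosin, differed by -1.57 ± 0.46 at day 14 (adjusted p = 0.291) and by -1.17 ± 0.41 over both days. TNNI3, cardiac troponin I, differed by 0.92 ± 0.33 at day 0 (adjusted p = 0.183). Over storage, TNNI3 had 0.69 ± 0.34 and MYL7 0.56 ± 0.35 in controls (MYL7 well above background on 2 arrays at day 0 and 1 at day 14), and ACTC1 had -0.84 ± 0.43 in treated animals. The interaction was -0.80 ± 0.79 for MYH3, and none is given for MYL7, which was not above background in treated animals at day 0.

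Of 19 fibre-type regulators 15 were measured, and 0 passed between treated and control animals. PPARGC1A, a coactivator that promotes oxidative metabolism, differed by 1.64 ± 0.53 at day 0 (limma adjusted p = 0.137) and VGLL2, a cofactor of TEAD factors, by 0.91 ± 0.29 (adjusted p = 0.13). Over both days the values were 1.26 ± 0.42 and 0.69 ± 0.22, and at day 14 HDAC4, a histone deacetylase, had 0.47 ± 0.21 and VGLL2 0.46 ± 0.27. Over storage, MEF2C, a transcription factor active in slow fibres, rose by 1.82 ± 0.27 in controls (adjusted p = 0.00113) and 1.84 ± 0.22 in treated animals (adjusted p = 0.000312). EYA1, a transcriptional cofactor, fell by 1.41 ± 0.29, TEAD1 by 0.88 ± 0.27 and PPP3CA, a calcineurin subunit, by 0.72 ± 0.19 in controls. The median of the list was 0.06 in controls and -0.05 in treated animals, and the interaction was 0.49 ± 0.34 for HDAC5 and 0.71 ± 0.54 for SOX6.

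Markers of other cells moved over storage as well. Beside the rise of MB, MYH7 and the first MYH1 probe in treated animals, where 11.8% of all probes fell, 2 of 5 fibroblast markers fell. These were DCN and LUM, with a list median of -1.37. Of the adipocyte markers 2 of 4 fell (PLIN1 and CIDEC), with a median of -1.24. PLIN1 was well above background on 1 treated array at day 14 and CIDEC on 2, so the adipocyte falls rest partly on signal near background. DCN and LUM fell in controls as well (limma adjusted p = 0.0165 and 0.0227). The summed log2 level of the fibroblast markers ran from 14.72 to 16.05 at day 0 and from 12.94 to 15.27 at day 14, and that of the adipocyte markers from 7.95 to 10.60 and from 5.11 to 9.53. In controls, beside the fall of the second MYH1 probe, 4 of 4 smooth muscle markers rose, where 21.7% of all probes rose. Their median change was 1.53. Their sum ran from 13.81 to 14.27 at day 0 and from 14.15 to 16.51 at day 14. In treated animals 0 of 4 smooth muscle markers passed, but all 4 lay above 0, with a median of 0.53. Endothelial markers rose in 3 of 4 in controls and 1 of 4 in treated animals, where 17.8% of all probes rose. Of the 6 skeletal muscle fibre markers, TTN rose by 2.98 in controls and CKM, DES and TCAP fell, where 17.4% of all probes fell. In treated animals TTN rose by 3.00 and ACTA1 by 1.80. Of the 6 markers, 3 lay above 0 there and 3 below (CKM, DES and TCAP), with a median of -0.08, and 0 passed as lower. LEP, which marks adipocytes, was too dim to be tested. PAX7, which marks satellite cells, matched no probe by gene symbol and was not measured here. The part of other cells in the changes of the fibre-type genes was not tested.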

How the data were processed

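Bovine neck muscle RNA was measured on 20 one-colour Agilent arrays, 5 per group, with animals numbered in the sample titles. The values are the deposited intensity of each spot after the scanner software had removed background and spatial trend (Feature Extraction 9.5.1.1, per the file headers). Marks for outlier, saturated and background spots are other columns of the deposited files, used to filter. The authors' series table of intensity, scaled by a method not given in the sources used here (R 2.11.1, per the submitters' processing notes), was an alternative.

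From these, log2 signal minus each array's 75th percentile was computed, with the mean percentile added back. The 935 outlier and 1417 control spots were left out, and the 2 spots of a probe averaged. A probe was tested if well above background on at least 5 of 20 arrays, which kept 15438 of 21475 probes. Symbols came from the deposited annotation and current bovine gene names (assembly ARS-UCD2.0), with 16515 probes named. Sequences and genome positions were not used.

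Differences between groups were tested in limma 3.58.1 (statmod 1.5.0, data.table version 1.17.8, R 4.3.3) and Benjamini-Hochberg adjustment over all tested probes at 0.05. Errors of differences are standard errors. The main storage and interaction fits compared group means and did not pair the 2 days of an animal, so their errors are not those of the changes within animals. Fits with the animal as a block or with differences within animals were alternatives. Day orders used 100000 two-sided permutations (scipy 1.17.1). The scripts were tested on simulated data. The number of animals limits precision, as arrays give no counts.

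The animal number pairs the days by the titles. The deviations of an animal's 2 arrays from their group means correlated at -0.15 to 0.28 across probes. The best match of a day 0 array was the same animal's day 14 array for K3, K6 and DE29 only. For the other animals it was the array of another animal, so the changes within animals rest on the titles. A description field that contradicts the titles on the storage day was not used, and a sample whose title has a shortened animal name was read as DE31. All 10 members were named. Of the other lists, genes that passed and the 2 of smallest p in each comparison were named, except 1 gene that is not reported here. A gene stands by 1 probe, the brightest without saturation or else that saturated on fewest arrays. Members and lists were chosen with earlier results of these data known. Alternatives were other scalings, filters, blocks and probes, and each animal left out. Figures used Python 3.11.15 and matplotlib 3.10.9.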

Additional observations from a re-analysis of the deposited data

Results flagged for a closer look

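A screen for a sample far from the rest of its group of 5 was run on the 9 probes and the index in each group, 40 groups in all, of which chance flags about 1 in 20. It marked 4. In control animals at day 0, MYH7 was 17.89 in K6, above the range of 17.57 to 17.64 in the others. In treated animals at day 0, MYH7 was 17.70 in DE30, above 17.41 to 17.49, and ATP2A1 was 17.09 in DE27, below 17.37 to 17.42. In treated animals at day 14, MB was 19.36 in DE29, above 18.80 to 18.93. No difference between treatments in the storage change passed its test.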

How the results depend on the processing

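The count of members that passed after storage in treated animals, 3, was 0 with quantile normalization and 1 with median centring, and ran from 2 to 3 with an animal left out. In controls the count of 0 became 1 in a joint fit with a random replicate block for each animal (MYH7, 0.41) and 1 with the mean of the MYH1 probes. Quantile normalization turned the sign of MYH7 at day 0 (0.04), of TNNC1 (-0.24), TNNC2 (-0.32) and ATP2A1 (-0.15) over storage in treated animals, and of the interaction for MYH7 (-0.09) and TNNC1 (-0.01); the cause was not tested. The treatment and interaction counts stayed at 0 members under every alternative run. Of the 507 member values under other settings, 493 kept their direction and their side of the threshold. With an animal left out, 448 of 450 did. Main values within 1 SE of 0 were taken as having no direction, so these counts include 22 and 29 values whose sign differed. The setting of the brightest MYH1 probe whatever its saturation chose the same probe as the main fit, so its values could not differ. The paired fit with the animal as a fixed replicate block changed no member's call. The mean index and the median correlation between days moved by less than their spread. Over all probes, calls at day 0 (378) were 201 with the animal as a random block and 680 with the slide as one; at day 14 (11) they were 1 to 107; over both days (520) 136 with normexp and 877 with the animal block; and over storage in treated animals (4565) 8834 with normexp. With an animal left out they were 135 to 311, 0 to 12, 220 to 529, 2432 to 5702 and, in controls (6043), 3240 to 6663. Slide and scan-date blocks could not be run over both days, since animal means span slides. The adjusted p for MB ran from 0.05 to 1 for treatment at day 14, from 4.79e-05 to 0.132 over storage in treated animals and from 0.549 to 1 for the interaction. Dim probes such as TNNT2 and MYL7 lie near background and TNNC1 and MB near saturation.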
